A study of Mus musculus with 16 samples.

Results

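The MYC and MAX network is a set of basic helix-loop-helix leucine zipper transcription factors, and 8 of its genes were followed here after FOXO3 or FOXO4 was switched on in mouse Ba/F3 cells. They were found by symbol in the array platform's probe-to-gene table, with older aliases updated, and comprised 2 activators (Myc and Mycn), 4 MAX-binding repressors (Mxi1, Mxd4, Mxd1 and Mnt) and 2 partners (Max and Mlx). Together they had 9 probes, 2 of them for Mlx, among 26000 probes with a symbol, and all 8 genes were among the 17484 genes tested.

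Ba/F3 is described as a mouse pro-B cell line, and it needs interleukin-3 to grow. Each treated culture came from a clonal line carrying FOXO3(A3)-ER or, in the other line, FOXO4(A3)-ER. In both, a FOXO factor is joined to an oestrogen receptor domain that 4-hydroxytamoxifen (4-OHT) activates, and both were expressed from pcDNA3-HA constructs under G418 selection. RNA was taken after 2 h or 8 h of 4-OHT and hybridised in 2 colours against a pool of the same line at 0 h, which gave 4 groups of 4 arrays, 1 for each line and time. In each group, replicates 1 and 3 carried the treated RNA in Cy3 and replicates 2 and 4 in Cy5, and array values are listed from replicate 1 to 4. The series title concerns glutamine metabolism, FOXO signalling and autophagy, and its design text states that replicates were independent. All cells, the 0 h pools included, carried a fusion and were grown in interleukin-3, and no array held fusion-free cells or cells cultured for the same times in the absence of 4-OHT. A difference between the lines is therefore also a difference between clones, and an effect of 4-OHT or of time in culture cannot be told apart from one of the FOXO factor.

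MAX is the shared partner of the network. MYC and MYCN bind DNA as heterodimers with MAX and recruit histone acetyltransferases, whereas MXD1, MXI1, MXD4 and MNT pair with the same MAX protein, bind the same E-box and recruit the SIN3 corepressor, so the amounts of activators and repressors compete for one partner. MLX heads a parallel branch: it pairs with MondoA, ChREBP, MNT and some MXD proteins. In blood cell precursors MYC drives growth and ribosome production under cytokine signalling, and MXD proteins accumulate as cells leave the cycle.

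Promoter stretches are shown for the members whose RefSeq window (250 bases before to 50 after a start site, GRCm38.p6) held the E-box CACGTG, which MYC-MAX and MXD-MAX dimers bind, or a FOXO core GTAAACA or ATAAACA. Capitals mark the motif, and each stretch reads 5′ to 3′ on the gene's strand. Motifs were searched on both strands, CACGTG being its own reverse complement, and each stretch holds 1 match, so none overlaps another. The stretches lie at chr12:76962233-76962262 on the minus strand for Max, chr5:34187911-34187940 on the minus strand for Mxd4, chr11:74830790-74830819 on the plus strand for Mnt, chr11:101087239-101087268 on the plus strand for Mlx, chr19:53329453-53329482 on the plus strand for Mxi1 and chr6:86669130-86669159 on the minus strand for Mxd1.
Max: gtgagcccggtCACGTGttagggggccgat
Mxd4: ggctgggccacCACGTGctgttgctaagct
Mnt: cccacccaagcCACGTGtgcgcgcgcggtg
Mlx: gtgggttggatCACGTGactgagcctcgcc
Mxi1: cgcgcggagaaGTAAACAaaccgcgcgcgg
Mxd1: ggcgagtcgggATAAACActcggcggtggc

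The promoter table held 9 windows for 7 of the 8 genes, 3 of them for Mxi1. It held no window for Myc, so Myc was not searched for motifs. CACGTG was present in 4 of these 9 windows, of 4 genes, against 7.15% of all 32851 windows. Its first base lay 3 bases before the start site in Max, 40 in Mlx, 123 in Mnt and 219 in Mxd4. GTAAACA was found in 1 of the 3 Mxi1 windows, 231 bases before the start site, and in 3.65% of all windows. ATAAACA was found in Mxd1, 11 bases past the first transcribed base, and in 4.6% of all windows. A match describes these letters and says nothing of binding. Mycn had none of the 3 motifs in its window.

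On 16 of 16 arrays all 9 probes lay above their local background in both channels. Myc, Mycn and Max were also brighter than the 95th percentile of the undetected external control spots in both channels on 16 of 16 arrays. A probe under that percentile is called dim here: Mxd1 and Mnt were dim on every array, Mxd4 at 0 h was dim on 16 of 16 arrays and in treated cells on 12 of 16 (it was brighter on 3 of the FOXO3 arrays and 1 of the FOXO4 arrays at 8 h), and Mlx was dim in treated cells on 10 of 16. Mxi1 was dim at 0 h on 3 of 16 arrays and in treated cells on none. The offset added at background correction draws the ratios of dim probes towards 0, so their folds are understated. Of 11 B-lineage markers, 1 (Cd79b) was above that percentile at 0 h on at least 8 arrays and 10 never were, Pax5, Ebf1 and Cd79a among them. Of 4 receptor markers, 2 were above it at 0 h on at least 8 arrays and 2 never were (Kit and Csf2rb). Of 9 mast cell and myeloid markers these counts were 3 and 5, with Ms4a2, Fcer1a and Mpo among those never above. Of 7 T, NK and erythroid markers they were 1 and 2. The markers above it on at least 8 arrays were the leukocyte antigen Ptprc, the receptor chain Csf2rb2, the mast cell gene Cpa3 and Gata2 (16 of 16 arrays), and Csf1r and Hba-a1 (13). Of these, Ptprc was called higher in 4 of 4 groups, Gata2 lower in 4 of 4, Csf2rb2 lower in FOXO3 cells at 2 h (-0.21) and in FOXO4 cells at 2 h (-0.45) and 8 h (-0.46), and Hba-a1 higher at 8 h (log2 ratio 1.76 in FOXO3 cells and 0.34 in FOXO4 cells). Cd3e, above that percentile at 0 h on 6 arrays, was called higher in FOXO3 cells at 8 h (0.41). The part of these genes in the results below was not tested. Apart from Cd79b, the B-lineage markers did not bear out the pro-B name of the line at that percentile. A dim probe does not show absence.

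Each value below is the log2 ratio of treated cells over the line's 0 h pool. A fitted ratio (limma) is given with its SE for 4 arrays per group, with a gene-specific dye term. The SE rests on 1 estimate of a gene's spread shared by all 16 arrays, so it is the same in every group. Calls required an adjusted p under 0.05 (Benjamini-Hochberg, over all 17484 genes). On arrays of bulk RNA, fewer cells expressing a gene and less RNA per cell cannot be told apart. The 0 h pool was 1 control sample per line, so its own spread is in no error below.

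The activators fell early. At 2 h, Myc fell to 1.63-fold below the 0 h pool in FOXO3 cells and 1.59-fold below it in FOXO4 cells, and Mycn fell 2.27-fold in FOXO3 cells and 2.76-fold in FOXO4 cells. At 8 h Myc was called different from 0 h in neither line, while Mycn stayed 1.41-fold lower in FOXO3 cells and 1.78-fold lower in FOXO4 cells. The repressors followed another course: Mxi1 was already higher at 2 h, Mxd4 and Mxd1 rose at 8 h, and all 3 were higher in FOXO3 than in FOXO4 cells at 8 h. Mnt was called in none of the 9 comparisons made.

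**Figure D1:**
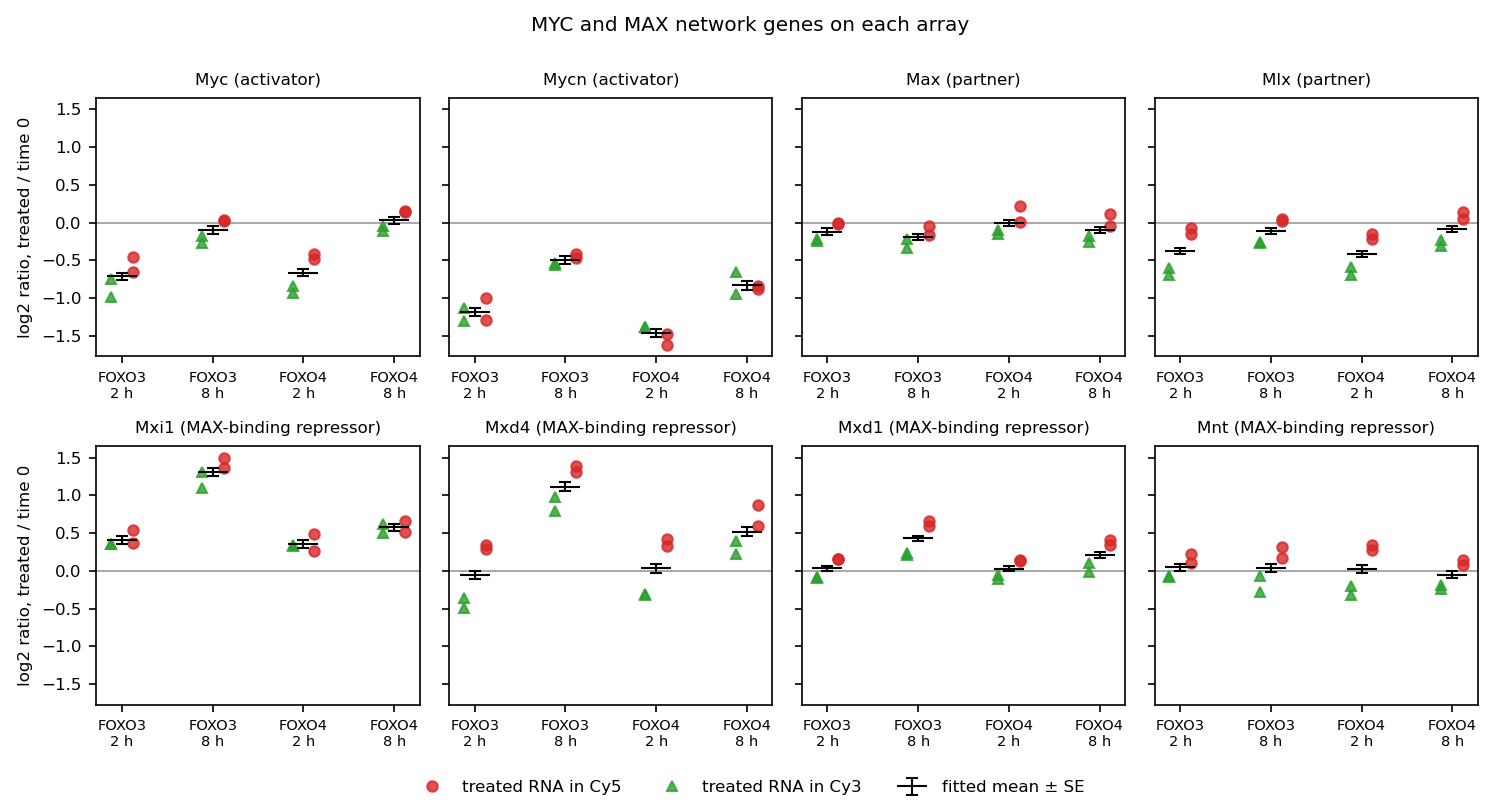
Log2 ratio of treated cells over the 0 h pool (vertical axis) for the 8 network genes on each of the 16 arrays, in 4 groups along the horizontal axis. Red circles are arrays with treated RNA in Cy5, green triangles arrays with treated RNA in Cy3, and black marks the fitted mean ± SE. Mycn lies below 0 on 16 of 16 arrays and Mxi1 above 0 on 16 of 16.

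Myc, the founding activator of the family, gave ratios of -0.74, -0.45, -0.99 and -0.66 on the 4 FOXO3 arrays at 2 h and -0.27, 0.04, -0.18 and 0.03 at 8 h. In FOXO4 cells it gave -0.93, -0.48, -0.83 and -0.41 at 2 h and -0.05, 0.14, -0.11 and 0.16 at 8 h. All 8 arrays at 2 h were below 0, and within each line the 2 h and 8 h arrays did not overlap. The fitted ratio at 2 h was -0.71 ± 0.047 in FOXO3 cells (adjusted p = 7.92e-09) and -0.66 ± 0.047 in FOXO4 cells (adjusted p = 1.74e-08). These placed Myc as the 19th lowest of 17484 genes in FOXO3 cells and the 27th in FOXO4 cells. The 8 h ratios, -0.10 in FOXO3 cells (95% CI -0.20 to 0.00, adjusted p = 0.141) and 0.03 in FOXO4 cells (95% CI -0.06 to 0.13, adjusted p = 0.795), were not called.

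The return of Myc was tested directly, in a comparison in which the 0 h pool cancels. Myc was higher at 8 h than at 2 h by 0.61 ± 0.066 in FOXO3 cells (1.53-fold, adjusted p = 1.08e-06) and by 0.70 ± 0.066 in FOXO4 cells (1.62-fold, adjusted p = 8.4e-07). The lines were not called different at 2 h (FOXO3 minus FOXO4 -0.04, 95% CI -0.18 to 0.10) or at 8 h (-0.13, 95% CI -0.27 to 0.01, adjusted p = 0.296). Their changes between 2 h and 8 h were not called different either (-0.09, 95% CI -0.29 to 0.11).

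Mycn, the paralogue best known from neural and early blood precursors, was lower on every array. Its ratios were -1.13, -0.99, -1.31 and -1.29 on the FOXO3 arrays at 2 h and -0.53, -0.42, -0.57 and -0.47 at 8 h. On the FOXO4 arrays they were -1.39, -1.47, -1.38 and -1.62 at 2 h and -0.95, -0.84, -0.65 and -0.88 at 8 h. Neither the times within a line nor the lines within a time overlapped. With a gap of -0.01 between the dye orientations (Cy5 minus Cy3), it was the member least touched by dye.

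The fitted ratio of Mycn at 2 h was -1.18 ± 0.057 in FOXO3 cells (adjusted p = 1.03e-10) and -1.46 ± 0.057 in FOXO4 cells (adjusted p = 7.77e-12), the 4th lowest of all genes in FOXO3 cells and the 5th in FOXO4 cells. At 8 h it was -0.50 ± 0.057 in FOXO3 cells (adjusted p = 8.4e-07) and -0.83 ± 0.057 in FOXO4 cells (adjusted p = 2.7e-09), ranking 594th from the lowest in FOXO3 cells and 22nd in FOXO4 cells. Mycn thus recovered in part: it was higher at 8 h than at 2 h by 0.68 ± 0.080 in FOXO3 cells (adjusted p = 2.78e-06) and by 0.63 ± 0.080 in FOXO4 cells (adjusted p = 2.63e-05). Mycn was less reduced in FOXO3 than in FOXO4 cells at 8 h, by 0.34 ± 0.080 (adjusted p = 0.0094). That call was lost with median centring of the arrays (0.23, adjusted p = 0.264) and without the dye term (adjusted p = 0.0569). The difference at 2 h, 0.28 (95% CI 0.11 to 0.45), had an unadjusted p of 0.00251 and was not called (adjusted p = 0.438).

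Mxi1, which encodes an MXD-family repressor, was the only repressor called at 2 h. The probes of Mxd4, Mxd1 and Mnt were dim at 2 h, so the order of response among the repressors was not settled. The ratios of Mxi1 were 0.36, 0.54, 0.35 and 0.36 on the FOXO3 arrays at 2 h and 1.09, 1.36, 1.30 and 1.50 at 8 h. On the FOXO4 arrays they were 0.33, 0.26, 0.35 and 0.49 at 2 h and 0.50, 0.51, 0.62 and 0.67 at 8 h. At 2 h the lines overlapped, and at 8 h every FOXO3 array lay above every FOXO4 array. Mxi1 had risen by 2 h, with a fitted ratio of 0.40 ± 0.051 in FOXO3 cells (1.32-fold, adjusted p = 2.65e-05) and 0.36 ± 0.051 in FOXO4 cells (1.28-fold, adjusted p = 0.000111). At 8 h it was 1.31 ± 0.051 in FOXO3 cells (2.48-fold, adjusted p = 3.05e-13) and 0.57 ± 0.051 in FOXO4 cells (1.49-fold, adjusted p = 9.01e-08).

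Mxi1 continued to rise in FOXO3 cells, where 8 h exceeded 2 h by 0.91 ± 0.072 (1.88-fold, adjusted p = 2.29e-08). In FOXO4 cells the same difference was 0.22 (95% CI 0.06 to 0.37) and was not called (adjusted p = 0.0677). It passed on the authors' deposited log2 ratios (adjusted p = 0.0188), with a filter at the control spots (0.04), without FOXO3 8 h replicate 1 (0.0416) and without FOXO4 8 h replicate 2 (0.0464). The lines were not called different at 2 h (0.05, 95% CI -0.11 to 0.20). At 8 h Mxi1 was higher in FOXO3 than in FOXO4 cells by 0.74 ± 0.072 (1.67-fold, adjusted p = 2.04e-06). The change between 2 h and 8 h was larger in FOXO3 cells by 0.69 ± 0.10 (adjusted p = 0.0008), the 56th highest such difference of all genes, although this call was lost with median centring (0.58, adjusted p = 0.193).

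Mxd4, an MXD repressor of differentiating cells, showed a late and line-dependent rise. Its ratios were -0.36, 0.29, -0.49 and 0.34 on the FOXO3 arrays at 2 h and 0.79, 1.39, 0.98 and 1.31 at 8 h. On the FOXO4 arrays they were -0.31, 0.33, -0.32 and 0.42 at 2 h and 0.39, 0.60, 0.22 and 0.87 at 8 h. At 2 h the sign followed the dye, negative with treated RNA in Cy3 and positive with it in Cy5, and the gap between orientations was 0.58. At 8 h all 8 arrays were above 0. The fitted ratio at 2 h was -0.05 in FOXO3 cells (adjusted p = 0.875) and 0.03 in FOXO4 cells (adjusted p = 0.91).

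At 8 h Mxd4 was higher by 1.12 ± 0.056 in FOXO3 cells (2.17-fold, adjusted p = 1.2e-11) and by 0.52 ± 0.056 in FOXO4 cells (1.43-fold, adjusted p = 1.25e-06). The rise from 2 h to 8 h was 1.17 ± 0.080 in FOXO3 cells (adjusted p = 3.8e-09) and 0.49 ± 0.080 in FOXO4 cells (adjusted p = 0.000363). FOXO3 cells exceeded FOXO4 cells at 8 h by 0.60 ± 0.080 (adjusted p = 5.96e-05), and their rise was larger by 0.68 ± 0.11 (adjusted p = 0.00225), the 63rd highest of all genes. Without the dye term the same differences kept their sizes. The calls in FOXO4 cells at 8 h (adjusted p = 0.0652), between 8 h and 2 h in FOXO4 cells (0.484), between the lines at 8 h (0.28) and of the larger rise (0.988) were then lost.

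Mxd1, an MXD repressor that accumulates as myeloid cells differentiate, rose at 8 h as Mxd4 did but less. It gave 0.24, 0.60, 0.21 and 0.66 on the FOXO3 arrays at 8 h, and 0.10, 0.35, -0.01 and 0.41 on the FOXO4 arrays at 8 h. Arrays with treated RNA in Cy5 were the higher ones in both lines, and the lines overlapped until the dye term was taken off. The fitted ratios at 2 h were 0.03 in each line (adjusted p = 0.889 in FOXO3 cells and 0.835 in FOXO4 cells). At 8 h Mxd1 was higher by 0.43 ± 0.037 in FOXO3 cells (1.35-fold, adjusted p = 1.99e-08) and by 0.21 ± 0.037 in FOXO4 cells (1.16-fold, adjusted p = 0.000317), and it was higher in FOXO3 than in FOXO4 cells by 0.22 ± 0.053 (adjusted p = 0.00941).

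Between 2 h and 8 h Mxd1 rose by 0.40 ± 0.053 in FOXO3 cells (adjusted p = 1.17e-05) and by 0.18 ± 0.053 in FOXO4 cells (adjusted p = 0.0329). The difference between these rises, 0.22 (95% CI 0.06 to 0.37), was not called (adjusted p = 0.156). The weak calls of Mxd1 did not hold everywhere. The FOXO4 rise was lost with median centring (0.11, adjusted p = 0.523), without the dye term (0.98), without FOXO4 2 h replicate 2, 3 or 4 (0.0934, 0.0527 and 0.0867) and without FOXO4 8 h replicate 1, 2 or 4 (0.107, 0.0622 and 0.106). The FOXO4 ratio at 8 h was lost with median centring (adjusted p = 0.0688) and without the dye term (0.233), as were, without the dye term, the FOXO3 rise (0.059) and the line difference (0.747).

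Mnt, a broadly expressed MAX-binding repressor, was called in no comparison. Its ratios on the 8 FOXO3 arrays ran from -0.28 to 0.32 and on the 8 FOXO4 arrays from -0.32 to 0.34, negative with treated RNA in Cy3 and positive with it in Cy5. Fitted ratios against 0 h lay between -0.05 and 0.04, and their 95% CIs within -0.16 to 0.15, for a dim probe.

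Max, the obligate partner, moved little. Its ratios were -0.21, -0.02, -0.24 and -0.01 on the FOXO3 arrays at 2 h and -0.34, -0.16, -0.21 and -0.05 at 8 h. On the FOXO4 arrays they were -0.15, 0.22, -0.10 and 0.00 at 2 h and -0.17, -0.05, -0.26 and 0.11 at 8 h. Only the FOXO3 arrays at 8 h, all below 0, gave a call (-0.19 ± 0.042, 1.14-fold lower, adjusted p = 0.00129), and it was lost without the dye term (adjusted p = 0.0954). Its other fitted ratios were -0.12 in FOXO3 cells at 2 h, -0.01 in FOXO4 cells at 2 h and -0.09 in FOXO4 cells at 8 h (adjusted p = 0.108, 0.98 and 0.163).

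Mlx, the partner of the parallel branch, fell early like Myc. Its brighter probe gave -0.60, -0.07, -0.69 and -0.15 on the FOXO3 arrays at 2 h and -0.26, 0.03, -0.27 and 0.04 at 8 h. In FOXO4 cells it gave -0.59, -0.22, -0.69 and -0.15 at 2 h and -0.22, 0.05, -0.31 and 0.14 at 8 h. All 8 arrays at 2 h were below 0, the Cy3 arrays further so. The fitted ratio at 2 h was -0.38 ± 0.041 in FOXO3 cells (1.3-fold lower, adjusted p = 5.11e-06) and -0.41 ± 0.041 in FOXO4 cells (1.33-fold lower, adjusted p = 1.78e-06). Neither call held without the dye term (adjusted p = 0.144 in FOXO3 cells and 0.0922 in FOXO4 cells). Mlx was higher at 8 h than at 2 h by 0.26 ± 0.058 in FOXO3 cells (adjusted p = 0.00213) and by 0.33 ± 0.058 in FOXO4 cells (adjusted p = 0.000739), calls that without the dye term were also lost (0.564 in each line).

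The second Mlx probe had the same sign at 2 h, with -0.23 in FOXO3 cells (adjusted p = 0.00503, over 30827 probes) and -0.17 in FOXO4 cells (adjusted p = 0.043). Its differences between 8 h and 2 h, 0.09 in FOXO3 cells (adjusted p = 0.498) and 0.12 in FOXO4 cells (adjusted p = 0.47), were not called. The ratio in FOXO3 cells at 8 h, -0.11, was just called (adjusted p = 0.0414). It was lost with no background correction (0.0601), with median centring (-0.06, adjusted p = 0.432), with no dye term (0.832), with arrays centred on the external control spots (-0.07, adjusted p = 0.301) and in the FOXO3 arrays alone (0.0804). It was also lost without FOXO3 8 h replicate 2, 3 or 4 (0.205, 0.0506 and 0.19) and without FOXO4 8 h replicate 3 or 4 (0.0526 and 0.051). The FOXO4 ratio at 8 h was -0.08 (adjusted p = 0.213).

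**Figure D2:**
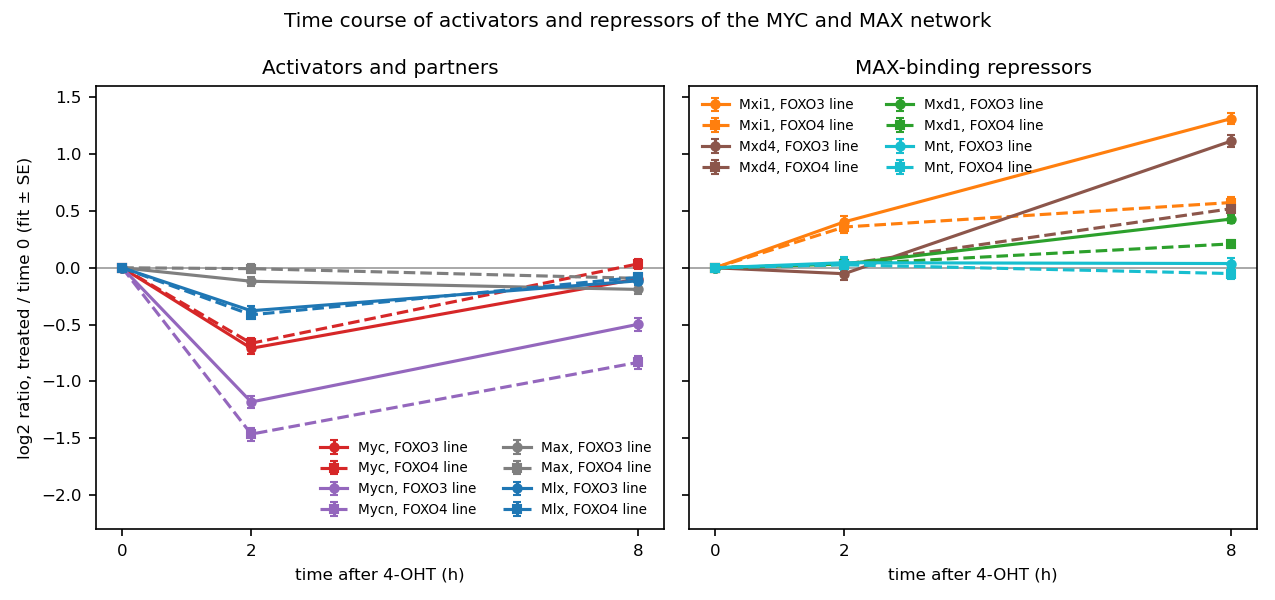
Fitted log2 ratio ± SE (vertical axis) at 2 h and 8 h of 4-OHT, with the 0 h pool drawn at 0, for activators and partners (left) and MAX-binding repressors (right). Solid lines are FOXO3 cells and dashed lines FOXO4 cells (4 arrays per point). Myc, Mycn and Mlx dip at 2 h, whereas Mxi1, Mxd4 and Mxd1 stand highest at 8 h in FOXO3 cells.

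Counted over the 8 members, at 2 h 1 was called higher and 3 lower in FOXO3 cells, against 7.8% of all genes called in either direction. In FOXO4 cells at 2 h 1 was higher and 3 lower, against 8.8%. At 8 h the counts were 3 higher and 3 lower in FOXO3 cells, against 30.5% of all genes, and 3 higher and 1 lower in FOXO4 cells, against 18.5%. Between 8 h and 2 h, 6 members were higher and 0 lower in FOXO3 cells, where 21.8% of all genes were called, 11.8% higher and 9.99% lower. In FOXO4 cells 5 were higher and 0 lower, where 10.7% of all genes were called, 6.74% higher and 3.95% lower. These comparisons share arrays and pools, so their counts are not independent. The members were also chosen with earlier results of these data known. Their shares, here and between the lines, therefore describe the chosen set and do not test it. The 5 further network genes tested are counted separately below.

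Between the lines, 0 of 8 members were called at 2 h by limma, against 0.0343% of all genes (6 genes), and 1 of 8, Mycn, had an unadjusted p under 0.05. At 8 h 4 members were higher in FOXO3 than in FOXO4 cells and 0 lower, against 10.6% of all genes (5.37% higher and 5.28% lower): Mxi1, Mxd4, Mxd1 and Mycn. The change between 2 h and 8 h was larger in FOXO3 cells for 2 members, Mxi1 and Mxd4, against 3.31% of all genes. Myc, Max, Mnt and Mlx were called different between the lines at neither time.

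**Figure D3:**
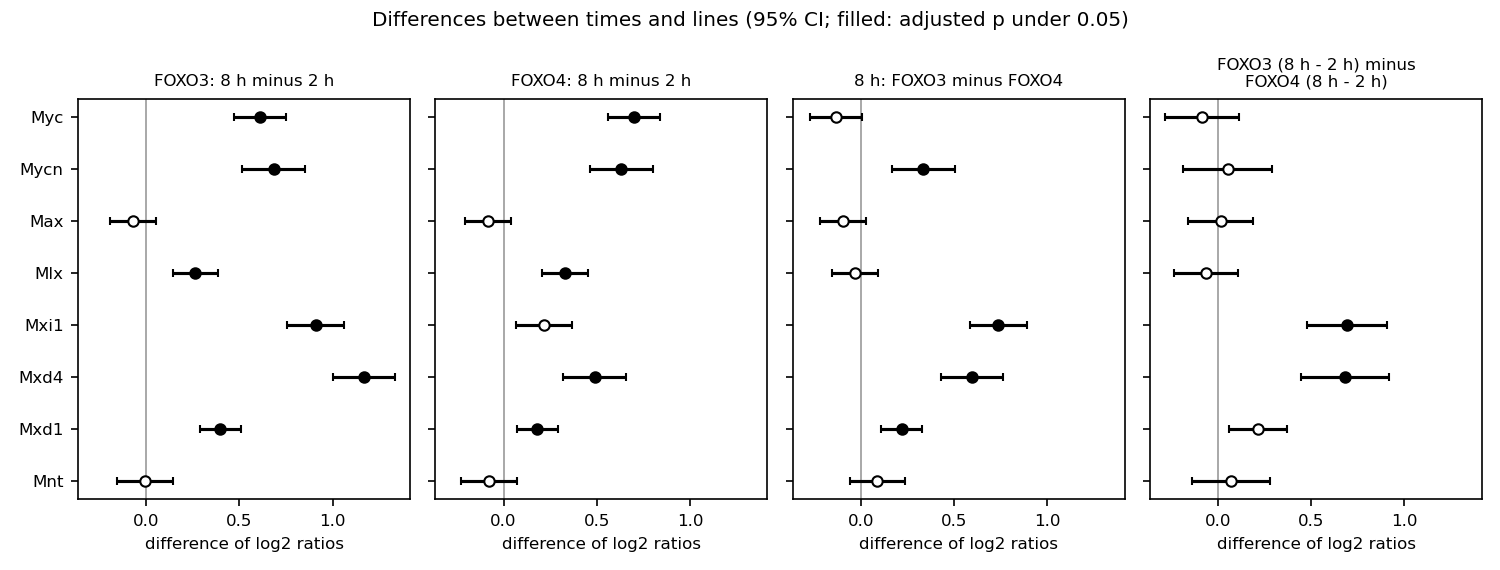
Differences of fitted log2 ratios with 95% CI (horizontal axis) for the 8 network genes. From left to right the panels show 8 h minus 2 h in FOXO3 cells, the same in FOXO4 cells, FOXO3 minus FOXO4 at 8 h, and the FOXO3 change between 2 h and 8 h minus the FOXO4 change. Filled points have an adjusted p under 0.05: Mxi1 and Mxd4 are the filled points of the last panel.

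Activators were set against repressors on each array, with the dye term taken off, as the mean of the 4 repressors' log2 ratios minus the mean of the 2 activators'. This difference was 1.05 ± 0.11 in FOXO3 cells at 2 h and 1.02 ± 0.041 at 8 h, and 1.18 ± 0.052 in FOXO4 cells at 2 h and 0.71 ± 0.094 at 8 h (SD, n = 4 arrays). It was above 0 on 16 of 16 arrays, from 0.62 to 1.25. The members were chosen with earlier results of these data known, so the sign of the difference is a description and not a test. Mycl, another activator, and Mxd3, another MXD repressor, were tested but are not in these means. The parts of the difference varied in size between the times. At 2 h the activators averaged -0.95 in FOXO3 cells and -1.06 in FOXO4 cells, while the repressors averaged 0.11 in each. At 8 h the activators averaged -0.30 in FOXO3 cells and -0.40 in FOXO4 cells, and the repressors 0.72 in FOXO3 cells and 0.31 in FOXO4 cells. The 8 pairings of a repressor with an activator were counted on the measured ratios, with the dye term left in. Of these, 8 had the repressor higher on every array at 2 h in both lines, 7 to 8 on the FOXO3 arrays at 8 h and 7 on the FOXO4 arrays at 8 h. Both measures compare ratios to 0 h, not transcript amounts, because levels of different probes cannot be compared on these arrays.

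Of the 5 further genes of the network that were tested, none was called at 2 h in either line, where 7.8% of all genes were called in FOXO3 cells and 8.8% in FOXO4 cells. At 8 h 1 of the 5 was called in each line, against 30.5% of all genes in FOXO3 cells and 18.5% in FOXO4 cells. Mlxipl, which encodes ChREBP, was lower in FOXO3 cells at 8 h (-0.18 ± 0.056, adjusted p = 0.0172). Mlxip, which encodes MondoA, the MLX partner, was higher in FOXO4 cells at 8 h (0.17 ± 0.056, adjusted p = 0.0428). It was also higher at 8 h than at 2 h by 0.25 in each line (adjusted p = 0.0262 in FOXO3 cells and 0.0494 in FOXO4 cells). Mycl, Mxd3 and Mga, an activator, an MXD repressor and a MAX-binding T-box factor, were called in no comparison.

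Published targets of MYC were read beside the network, from a list of 46 genes that MYC activates, of which 45 were tested. At 2 h, when Myc and Mycn were lowest, 6 were lower and 0 higher in FOXO3 cells (13.3% lower, against 4.34% of all genes). In FOXO4 cells at 2 h 6 were lower and 4 higher (13.3% lower and 8.89% higher, against 5.41% and 3.39% of all genes). The list's median was -0.01 in FOXO3 cells and 0.01 in FOXO4 cells, against 0.00 over all genes in both. Hk2, the glycolytic hexokinase, fell most by adjusted p in FOXO3 cells (-0.84 ± 0.044, adjusted p = 3.54e-10) and was lower in FOXO4 cells too (-0.52 ± 0.044, adjusted p = 2.07e-07). Tfrc, the transferrin receptor, was lower in both lines, at -0.17 in FOXO3 cells and -0.61 in FOXO4 cells. Cdca7 (-0.33), the RNA polymerase I subunit gene Polr1b (-0.27) and the ribosome biogenesis gene Rrs1 (-0.26) were the next called in FOXO3 cells, and Rrs1 (-0.25) in FOXO4 cells. Eif4a1, a translation initiation factor, was higher by 0.18 in FOXO4 cells.

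At 8 h Myc was called in neither line, while Mycn was still called lower in both (-0.50 in FOXO3 and -0.83 in FOXO4 cells). At that time 36 of the 45 were lower and 3 higher in FOXO3 cells (80% lower, against 15.1% of all genes), with a median of -0.54. In FOXO4 cells 20 were lower and 1 higher (44.4% lower, against 8.75%), with a median of -0.15, and all 20 were also lower in FOXO3 cells. In FOXO3 cells Cdca7 (-1.21 ± 0.048, adjusted p = 3.52e-13), Shmt1 of one-carbon metabolism (-1.07 ± 0.048, adjusted p = 2.53e-12), the DNA repair enzyme gene Apex1 (-0.84 ± 0.039, adjusted p = 2.88e-12) and Hk2 (-0.96 ± 0.044, adjusted p = 3.24e-12) led. In FOXO4 cells the nucleolar gene Nop56 (-0.50 ± 0.049, adjusted p = 3.65e-07), Shmt1 (-0.48 ± 0.048, adjusted p = 4.46e-07) and Apex1 (-0.34 ± 0.039, adjusted p = 2.16e-06) led, and Tfrc was higher (0.43 ± 0.049, adjusted p = 2.2e-06). Hk2 was not called in FOXO4 cells at 8 h (-0.06, adjusted p = 0.446).

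The lines differed over this list at 8 h: 29 of the 45 were lower in FOXO3 than in FOXO4 cells and 1 higher (64.4% lower, against 5.28% of all genes), with a median difference of -0.34. At 2 h 0 were lower and 1 higher (2.22% higher, against 0.0172% of all genes). The change between 2 h and 8 h was more negative in FOXO3 cells for 13 and less so for 0, against 1.43% of all genes lower in that comparison.

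Of 16 genes that MYC is known to repress, 15 were tested. At 2 h 3 were higher and 1 lower in FOXO3 cells (20% higher, against 3.47% of all genes), and 4 were higher and 1 lower in FOXO4 cells (26.7% higher, against 3.39%). At 8 h 10 were higher and 1 lower in FOXO3 cells (66.7% higher, against 15.4%, median 0.43), and 8 were higher and 0 lower in FOXO4 cells (53.3% higher, against 9.71%, median 0.19), 7 of them in both lines. The antiproliferative gene Btg1 led in FOXO3 cells at 8 h (1.87 ± 0.061, adjusted p = 2.9e-14), followed by the transcriptional repressor gene Hbp1 (2.19 ± 0.090, adjusted p = 6.59e-13) and the stress-induced growth arrest gene Gadd45a (1.95 ± 0.099, adjusted p = 1.31e-11). In FOXO4 cells these were Gadd45a (1.56 ± 0.099, adjusted p = 1.01e-09), Hbp1 (1.26 ± 0.090, adjusted p = 4.78e-09) and Btg1 (0.78 ± 0.061, adjusted p = 1.39e-08). Btg1, Gadd45a and the cell cycle inhibitor gene Cdkn1b are also known FOXO targets, so the list is not particular to MYC.

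The member called lower at 2 h was Cdkn1a, which encodes the cell cycle inhibitor p21: -0.60 ± 0.053 in FOXO3 cells (adjusted p = 3.77e-07) and -0.79 ± 0.053 in FOXO4 cells (adjusted p = 1e-08). At 8 h Cdkn1a was higher in FOXO3 cells (0.43 ± 0.053, adjusted p = 2.67e-06) and was not called in FOXO4 cells (0.01, adjusted p = 0.953). Its direction at 2 h was opposite to that of Btg1, Hbp1 and Gadd45a.

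**Figure D4:**
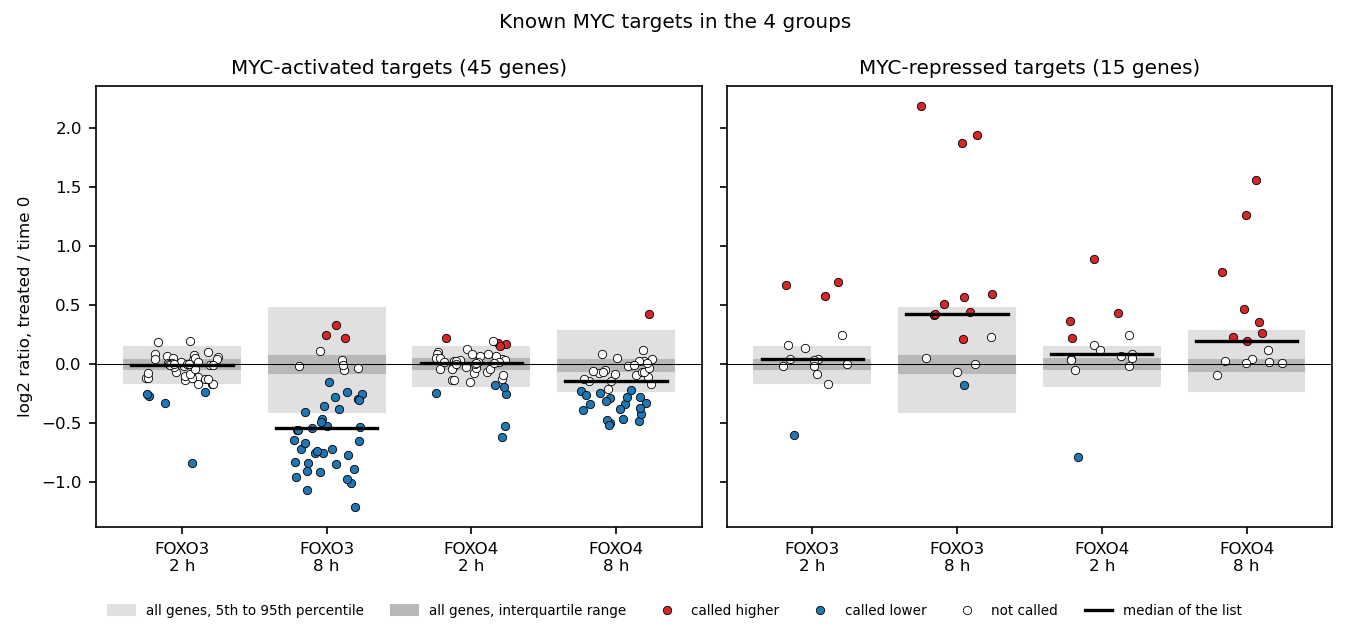
Fitted log2 ratio of treated cells over the 0 h pool (vertical axis) for 45 MYC-activated (left) and 15 MYC-repressed genes (right) in the 4 groups along the horizontal axis. Points are genes, red called higher, blue called lower and white not called; black bars are list medians and grey boxes span the 5th to 95th percentile and the interquartile range of all genes. In FOXO3 cells at 8 h the left median, -0.54, lies below the 5th percentile of all genes, -0.41.

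Proteins that the 2 sides of the network recruit were counted in the same way. Of 14 MYC cofactor genes tested, 1 was higher and 0 lower at 2 h in each line (7.14% higher, against 3.47% of all genes in FOXO3 cells and 3.39% in FOXO4 cells). At 8 h 6 were lower and 2 higher in FOXO3 cells (42.9% lower and 14.3% higher, against 15.1% and 15.4% of all genes, median -0.09). In FOXO4 cells 5 were lower and 2 higher (35.7% lower and 14.3% higher, against 8.75% and 9.71%, median -0.02). The share called higher in FOXO3 cells was thus near that of all genes. The same 4 led in both lines at 8 h: Wdr5, whose protein tethers MYC to chromatin, at -0.60 in FOXO3 and -0.39 in FOXO4 cells, the helicase genes Ruvbl2 (-0.70 in FOXO3 and -0.37 in FOXO4 cells) and Ruvbl1 (-0.64 in FOXO3 and -0.39 in FOXO4 cells), and the acetyltransferase gene Kat2a (-0.78 in FOXO3 and -0.31 in FOXO4 cells). Of 11 SIN3 and NCoR corepressor genes tested, 2 were lower and 0 higher at 2 h in each line (18.2% lower, against 4.34% of all genes in FOXO3 cells and 5.41% in FOXO4 cells). These were Sap30 (-0.38 in FOXO3 and -0.23 in FOXO4 cells) and Sin3a (-0.22 in FOXO3 and -0.12 in FOXO4 cells), both parts of the complex that MXD proteins recruit. At 8 h 5 were higher and 3 lower in FOXO3 cells (45.5% higher and 27.3% lower, against 15.4% and 15.1% of all genes, median 0.14). In FOXO4 cells 2 were higher and 1 lower (18.2% higher and 9.09% lower, against 9.71% and 8.75%, median -0.02), the lower share being near that of all genes. Suds3, a SIN3 subunit, was higher in FOXO3 cells (0.72 ± 0.048, adjusted p = 5.11e-10), and the deacetylase gene Hdac2 was lower in both lines (-0.43 in FOXO3 and -0.31 in FOXO4 cells).

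The members' patterns were compared over the 16 arrays with the dye term taken off. Mxd1, Mxd4 and Mxi1 resembled each other, with Pearson r of 0.92 for Mxd1 with Mxd4, 0.93 for Mxd1 with Mxi1 and 0.92 for Mxd4 with Mxi1. Myc resembled Mlx (r = 0.94) more than Mxd4 (0.81) or Mycn (0.79). Mycn resembled Mxd1 (0.88), Mxd4 (0.87) and Mxi1 (0.86) more than Mlx (0.80) or Myc. Its ratios to 0 h were, however, of the opposite sign to those of Mxd1, Mxd4 and Mxi1 at 8 h. Max resembled no other member above 0.05 and ran inversely to Mycn (r = -0.65), Mxi1 (-0.60), Mxd1 (-0.53) and Mxd4 (-0.48). Its r was -0.39 with Mlx and -0.33 with Myc. For Mnt, r with the other members lay between -0.255 and 0.05. All these arrays share 2 pools and 4 groups, so each r describes the shared time courses. Among all genes, the closest to Myc were Mtap (r = 0.978), Agfg1 (0.977), Atp10a (0.973) and Asph (0.971). Those closest to Mycn were Rasa1 (0.962), Metrnl (0.959), Stag2 (0.958) and Ibtk (0.958). For Mxd4 they were Cxcr4 (0.988), Trp53inp1 (0.986), Cdk19 (0.985) and Gabarapl2 (0.981), and for Mxi1 Sfxn3 (0.980), Ttc5 (0.978), Erlec1 (0.976) and Etfbkmt (0.976). A high r did not mean the same sign against 0 h: Mtap had a log2 ratio of 0.36 in FOXO3 cells at 2 h, where Myc had -0.71.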

How the data were processed

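Per the file headers, the authors deposited scanner intensities (spot mean and local background of each channel), normalized intensities, and a table of log2 values, which matched log2(treated / time 0) of the normalized intensities. Per the labels' protocols, RNA was T7-amplified with external control RNA added; scanner, software and normalization method: not given in the sources used here. From the scanner intensities, background was corrected (normexp, offset 50) and ratios normalized by loess within arrays, with control spots at weight 0. Probes above background by 2 SD in either channel on at least 4 arrays were kept (942 left out), and the brightest stood for its gene. All 16 arrays entered 1 limma fit (3.58.1, R 4.3.3) with 4 group means and a dye term. The median SE was 0.0501 for a group and 0.0709 for a difference; the number of arrays limits precision. Within a group, opposite-dye arrays correlated at -0.59 to 0.41 over genes, and same-dye arrays at 0.80 or more. The fit was tested on simulated data.

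Every member was named; each list gave up to 4 called genes of smallest adjusted p per comparison, and other list genes named were chosen after their values were seen. Likeness named the 4 genes of highest r, without clone or predicted names. Members and lists were chosen with earlier results of these data known. Old symbols were updated through RefSeq GRCm38.p6, which also gave the promoters. Alternatives changed background, centring, dye term, filter, probe choice, arrays, the replicate block and the authors' log2 values. List genes without a tested probe are not analysed here.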

Additional observations from a re-analysis of the deposited data

Results flagged for a closer look

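The 4 FOXO3 arrays at 8 h held 1 value of Myc apart from the others, at -0.026 with the dye term taken off. The gap test used flags about 1 in 20 groups by chance. It was run for each of the 8 members in each of the 4 groups, so a flag by chance was to be expected. The test of the difference itself flagged the following between times or lines, all on the log2 scale.

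Between 8 h and 2 h, Myc differed by 0.61 in FOXO3 cells and 0.70 in FOXO4 cells, and Mycn by 0.68 in FOXO3 cells and 0.63 in FOXO4 cells. Mlx differed by 0.26 in FOXO3 cells and 0.33 in FOXO4 cells, and Mxd1 by 0.40 in FOXO3 cells and 0.18 in FOXO4 cells. Mxd4 differed by 1.17 in FOXO3 cells and 0.49 in FOXO4 cells, and Mxi1 by 0.91 in FOXO3 cells. Between FOXO3 and FOXO4 cells at 8 h, Mxi1 differed by 0.74, Mxd4 by 0.60, Mycn by 0.34 and Mxd1 by 0.22. The change between 2 h and 8 h was larger in FOXO3 than in FOXO4 cells by 0.69 for Mxi1 and by 0.68 for Mxd4. The remaining members were not called in these comparisons.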

How the results depend on the processing

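No member's log2 ratio reversed its direction where it was called. Without the dye term, the members called numbered 2 in place of 4 in FOXO4 cells at 8 h, 2 in place of 5 between 8 h and 2 h in FOXO4 cells, 1 in place of 4 between the lines at 8 h, and 1 in place of 2 for the difference of changes. They also numbered 3 in place of 4 at 2 h in each line, and 4 in place of 6 in FOXO3 cells both at 8 h and between 8 h and 2 h, and stayed at 0 between the lines at 2 h. Fold sizes were the same by construction, since the dyes balance in each group. With median centring the difference of changes was called for 1 member in place of 2; the cause was not tested. Leaving out each array in turn gave 5 to 6 members called in FOXO3 cells at 8 h, 4 to 6 between 8 h and 2 h in FOXO4 cells, 6 for that difference in FOXO3 cells, 4 in each of FOXO3 at 2 h, FOXO4 at 2 h, FOXO4 at 8 h and the lines at 8 h, 0 for the lines at 2 h and 2 for the difference of changes. A filter at the control spots removed Mxd1 and Mnt. With no filter, or with the mean of a gene's probes, 72 of 72 member results kept their side of the threshold.

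No pairing of cultures by replicate number was detected: deviations of same-numbered 2 h and 8 h samples correlated at -0.39 to 0.17. Low correlations cannot show that the cultures were separate. With the replicate block (consensus correlation 0.0297) the call of 72 of 72 member results was the same; Myc in FOXO3 cells at 2 h was -0.71 (adjusted p = 8.52e-09). Slide and scan date as a block were not run, since the files used here gave neither. The probes of Mxd1, Mnt and, at 0 h, Mxd4 were dim, which limits the size of their ratios.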

Other observations

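Of 12 genes tested that act on MYC protein turnover, 2 were lower at 2 h in each line (16.7%, against 4.34% of all genes in FOXO3 cells and 5.41% in FOXO4 cells): Trim32, which encodes a ubiquitin ligase (-0.32 in FOXO3 and -0.36 in FOXO4 cells), and the kinase gene Aurka, whose protein stabilises MYCN (-0.30 in FOXO3 and -0.22 in FOXO4 cells). Set, which encodes a phosphatase inhibitor, was higher at 2 h in FOXO3 cells (0.33 ± 0.045, adjusted p = 6.06e-05) and lower there at 8 h (-0.36 ± 0.045, adjusted p = 2.47e-06). At 8 h 4 were higher and 4 lower in FOXO3 cells (33.3% each way, against 15.4% higher and 15.1% lower of all genes, median -0.08). In FOXO4 cells 2 were higher and 1 lower (16.7% higher and 8.33% lower, against 9.71% and 8.75%, median 0.05), the lower share being near that of all genes. The phosphatase subunit gene Ppp2r5a was higher in both lines at 8 h (0.50 in FOXO3 and 0.31 in FOXO4 cells), and Fbxw7, the ubiquitin ligase gene that marks MYC for degradation, was higher in FOXO3 cells (0.33 ± 0.045, adjusted p = 7.24e-06). The arrays measured no protein.

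Of 6 targets of MLX and its partner MondoA, 2 were called in any group against 0 h. In FOXO3 cells 1 was higher and 1 lower at each time (16.7% each way). At 2 h 3.47% of all genes were higher and 4.34% lower. At 8 h these were 15.4% and 15.1%, so that the list's shares there (median 0.03) were near those of all genes. In FOXO4 cells 0 were higher and 1 lower at each time (16.7% lower, against 5.41% of all genes at 2 h and 8.75% at 8 h). Txnip, a glucose-responsive arrestin gene, was higher in FOXO3 cells at 2 h (0.34 ± 0.042, adjusted p = 1.69e-05) and at 8 h (1.01 ± 0.042, adjusted p = 6.42e-13). In FOXO4 cells it was not called, at 0.13 at 2 h (adjusted p = 0.0621) and 0.08 at 8 h (adjusted p = 0.296). Klf10, a transcriptional repressor gene, was lower in 4 of 4 groups, at -0.40 in FOXO3 cells and -0.42 in FOXO4 cells at 2 h and at -0.35 in FOXO3 cells and -0.22 in FOXO4 cells at 8 h.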
